A study of Mus musculus with 40 samples.

Results

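The mitochondrial mRNA genes ND1, ND2, ND4, ND5, ND6, CYTB, COX1, COX2, COX3 and ATP6 were followed across RNA-seq of mouse retina. They were chosen by symbol, with earlier results of these data known, and are 10 of the 42037 gene symbols counted. All 10 passed the filter on low counts. The libraries came from 40 whole retinas of C57BL/6J mice, 4 in each of 10 groups, taken at postnatal day 19 (P19) or 17 (P17). In oxygen-induced retinopathy (OIR), pups breathe 75% oxygen from P7 to P12, lose retinal vessels, and regrow abnormal ones after return to room air. At each age 4 groups had OIR and an injection of 1 µl into the eye at P14. They received the bispecific antibody B20.4.1_LC10 at 0.4 µg/µl, anti-ANG-2 (LC10) or anti-VEGFA (B20.4.1) at 0.2 µg/µl each, or control IgG at 0.4 µg/µl. VEGFA and ANG-2 are secreted regulators of vessel growth and vessel stability. The remaining group at each age had no OIR (nOIR), and the labels do not say whether those eyes were injected, so any effect of injection and IgG is part of the OIR comparison.

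The mitochondrial genome is a small circle that is read from both strands as long precursor RNAs, which are cut into mRNAs, rRNAs and tRNAs, mostly at the tRNAs. Its mRNAs encode core subunits of the respiratory chain and of ATP synthase, and every other subunit of those complexes comes from the nucleus. ND1, ND2, ND4, ND5 and ND6 belong to complex I, which takes electrons from NADH. CYTB is the cytochrome b of complex III, COX1, COX2 and COX3 form the core of cytochrome c oxidase (complex IV), and ATP6 is a proton channel subunit of ATP synthase. In the retina, photoreceptors pack mitochondria densely into their inner segments and are the main consumers of oxygen.

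In the GENCODE M21 annotation of GRCm38 the 10 genes are single exons without introns, and 9 lie on the plus strand of chromosome M. ND6 is the exception, at 13552 to 14070 on the minus strand. The 3' ends are shown because some of these genes end without a whole stop codon, and because ND5 and ND6 overlap there. Each line gives the last 24 bases of the gene, 5' to 3' on the gene's own strand, with the bases of the stop codon in capitals.
ND1, chrM:3684-3707, plus strand: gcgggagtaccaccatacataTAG
ND6, chrM:13552-13575, minus strand: attatcgagattactcgagatTAA
ND5, chrM:13542-13565, plus strand: ttatactcaattaatctcgagTAA
CYTB, chrM:15265-15288, plus strand: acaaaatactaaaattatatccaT
ND4, chrM:11521-11544, plus strand: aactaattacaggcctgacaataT
COX1, chrM:6849-6872, plus strand: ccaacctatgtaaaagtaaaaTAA
COX3, chrM:9367-9390, plus strand: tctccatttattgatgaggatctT
ATP6, chrM:8584-8607, plus strand: ctatatctacatgataatacaTAA

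CYTB, ND4 and COX3 end in a lone T, and in these genes the poly(A) tail of the mRNA completes the stop codon to TAA, a known property of mammalian mitochondrial mRNAs. The other 7 genes carry a whole stop codon. ND5 and ND6 face each other and share 14 bases at their 3' ends, on opposite strands. The labels' protocols do not mention a strand-specific method, so reads from that stretch, or from precursor RNA antisense to ND6, cannot be assigned to 1 strand. Reads can also be shared with nuclear copies of mitochondrial DNA, and how the authors' counting divided them was not tested. ATP6 also shares its first 43 bases with the end of ATP8, which is not among the 10 genes. That start is shown with the shared bases in capitals.
ATP6, chrM:7927-7986, plus strand: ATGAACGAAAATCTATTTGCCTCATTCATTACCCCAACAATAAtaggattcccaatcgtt

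The 10 mRNAs differed widely in level, and their order was stable across retinas. In TPM (a length-scaled share of all transcripts), COX3 was highest at 32130 ± 6071 TPM (SD, n = 40). ATP6 followed at 18540 ± 4086 TPM, COX1 at 11878 ± 1769 TPM, CYTB at 10195 ± 1801 TPM and COX2 at 9071 ± 1348 TPM. The complex I genes were lower, with ND1 at 6466 ± 1394 TPM, ND5 at 3092 ± 769 TPM, ND4 at 3079 ± 652 TPM, ND6 at 1949 ± 442 TPM and ND2 at 977 ± 209 TPM. Each gene stood above the next in all 40 libraries, except that CYTB exceeded COX2 in 35 and ND5 exceeded ND4 in only 18. Levels of ND5 and ND4 therefore did not differ beyond their spread in TPM.

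TPM depends on the length that RSEM, the program that estimated the counts, treats as readable. The ratio of TPM to CPM (counts scaled to a common library size) was 1.03 for COX1 but 6.34 for the short ND6. On a second scale, CPM divided by annotated length in kilobases, the 10 genes kept the same rank order. COX3 had 15219 ± 4267, ATP6 7883 ± 2551, COX1 7603 ± 1711, ND6 613 ± 210 and ND2 545 ± 164 CPM per kilobase (SD, n = 40). On this scale ATP6 exceeded COX1 in only 21 of 40 libraries, so these genes did not differ beyond their spread there. ND5 exceeded ND4 in 32 of 40 libraries on this scale, at 2068 ± 656 and 1914 ± 558 CPM per kilobase. ND6 and ND2 stood at the bottom on both scales. Neither scale corrects for how fully each mRNA was captured when the libraries were made, which was not tested.

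**Figure D1:**
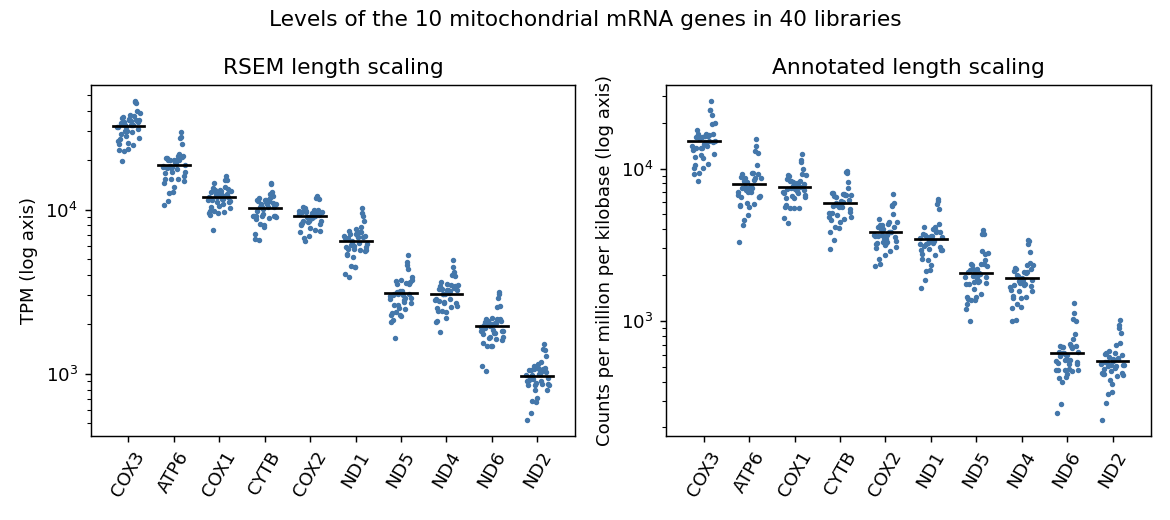
Each point is 1 of the 40 libraries and each bar the mean, for the 10 genes in order of mean TPM. The left panel has TPM and the right panel CPM per kilobase of annotated length, both on log axes, and COX3 leads while ND2 is last in both.

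Together the 10 genes took up between 2.73% and 8.64% of all expected counts in a library. At P19, the bispecific retinas had shares of 4.54%, 4.13%, 4.47% and 5.88%. The anti-ANG-2 retinas had 8.64%, 6.18%, 7.04% and 5.39%. The anti-VEGFA retinas had 5.15%, 5.52%, 7.80% and 8.03%. Thus 3 of 4 retinas given either single antibody stood above every IgG retina, and both groups also held a retina within the IgG range. The IgG retinas at P19 had 5.45%, 4.59%, 5.39% and 3.62%, and the nOIR retinas 4.78%, 4.72%, 5.02% and 4.54%. The nOIR group was the tightest of all, with an SD of 0.199 percentage points.

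At P17 no antibody group stood apart. The bispecific retinas had shares of 5.01%, 4.61%, 3.32% and 3.76%, and the anti-ANG-2 retinas 5.08%, 5.26%, 4.64% and 4.00%. The anti-VEGFA retinas split into 2 high values, 5.74% and 5.51%, and 2 low ones, 2.73% and 3.22%. The IgG retinas had 3.60%, 3.96%, 5.41% and 4.55%, and the nOIR retinas 4.51%, 4.28%, 2.73% and 3.46%. The anti-VEGFA retinas spanned the widest range at this age, with an SD of 1.55 percentage points. In whole-retina RNA, fewer cells of a type and less RNA per cell cannot be told apart, and this holds for every difference below.

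**Figure D2:**
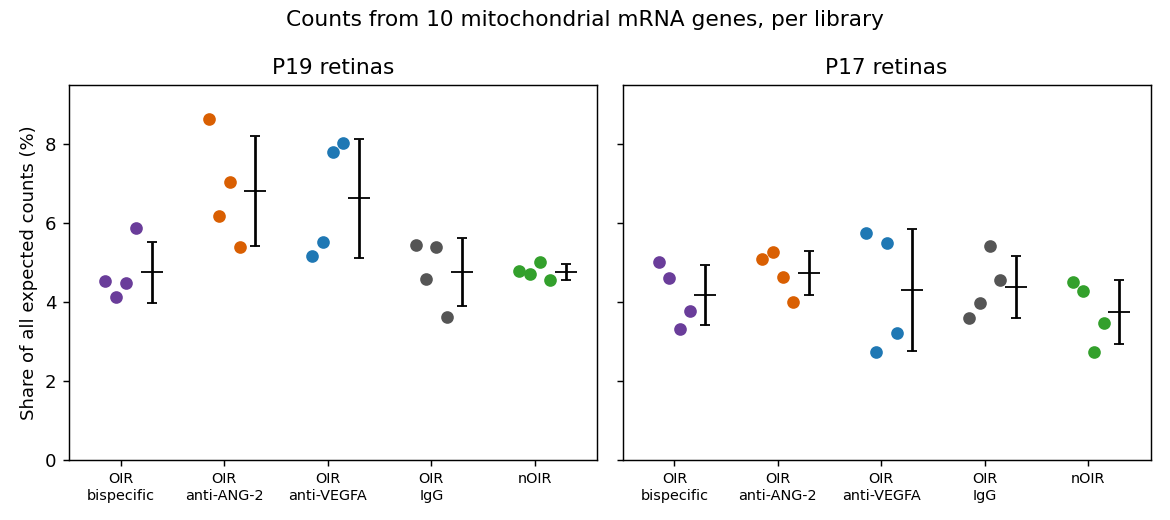
The vertical axis is the share of all expected counts that fell on the 10 mitochondrial mRNA genes, with P19 on the left and P17 on the right. Points are single retinas and the bars are mean ± SD of 4, and the anti-ANG-2 retinas at P19, from 5.39% to 8.64%, lie wholly above those at P17, from 4.00% to 5.26%.

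The genes moved nearly as 1 unit. Over the 40 libraries, Pearson correlations of log2 CPM between pairs of the 10 genes ran from 0.90 to 0.99, over libraries that also share depth and RNA quality. The 10 genes are therefore not 10 independent results, and a count of them says little more than 1 of them does. ND5 followed the mean of the others least closely (r = 0.95) and ATP6 most closely (r = 0.99).

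The makeup of the mitochondrial mRNA pool was steady, with a few departures that were picked out after the values were seen and are given as descriptions. COX1 made up less of the 10 genes' counts at P19 than at P17 in each OIR group. Its part of the pool was 23.04% to 24.6% at P19 against 25.3% to 26.4% at P17 in bispecific retinas, and 21.7% to 23.2% at P19 against 24.2% to 25.6% at P17 in anti-ANG-2 retinas. In anti-VEGFA retinas it was 21.9% to 23.05% at P19 against 24.4% to 26.4% at P17, and in IgG retinas 22.4% to 23.7% at P19 against 24.6% to 25.1% at P17. In these 4 pairs of groups the ages did not overlap, while in nOIR retinas they just did, at 24.04% to 24.3% at P19 against 24.2% to 26.9% at P17. ND5 made up 7.81% to 9.36% of the pool in bispecific retinas and 8.32% to 9.47% in anti-VEGFA retinas at P19, against 6.85% to 7.55% in IgG retinas at P19, without overlap in either pair. With anti-ANG-2 at P19 its part, 6.97% to 8.49%, overlapped that of IgG. COX3 took 22.8% to 26.6% of the pool over all 40 libraries.

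The clearest change was between the ages in retinas given anti-ANG-2, where mitochondrial mRNAs were higher at P19 than at P17. In edgeR's quasi-likelihood test 9 of the 10 genes rose, with adjusted p under 0.05, against 4.83% of all 23495 genes tested called in either direction and 3.32% called higher. The log2 fold changes ran from 0.68 to 1.02 with a median of 0.87, against a median of -0.05 over all genes. Likewise 9 of 10 genes had every P19 retina above every P17 retina, against 5.78% of all genes.

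ATP6 had 14242, 8404, 9763 and 6414 CPM (here and below scaled with TMM library factors) in anti-ANG-2 retinas at P19, against 5037, 5678, 4594 and 3870 CPM at P17. All P19 retinas were above all P17 retinas, replicate 1 far above the rest. The rise was 2.02-fold (log2 1.02, SE 0.27, edgeR adjusted p = 0.02). ND6, the gene on the minus strand, had 917, 494, 585 and 361 CPM in anti-ANG-2 retinas at P19, against 310, 336, 297 and 235 CPM at P17. It too was higher in 4 of 4 retinas, but its lowest P19 value was close to its highest P17 value, and the log2 fold change was 1.00 (SE 0.26, edgeR adjusted p = 0.02).

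ND1 had 8150, 4791, 5849 and 3726 CPM in anti-ANG-2 retinas at P19, against 2983, 3280, 2886 and 2298 CPM at P17. The groups did not overlap and ND1 rose 1.97-fold (log2 0.98, SE 0.26, edgeR adjusted p = 0.02). COX3, the most abundant of the 10 in TPM, had 29358, 17922, 19848 and 13374 CPM in anti-ANG-2 retinas at P19, against 12010, 12011, 10048 and 9105 CPM at P17. It rose 1.87-fold (log2 0.90, SE 0.25, edgeR adjusted p = 0.027), again without overlap. CYTB, the only complex III gene of the mitochondrial genome, had 14745, 9865, 10630 and 7221 CPM in anti-ANG-2 retinas at P19, against 6570, 7109, 6158 and 5348 CPM at P17. Its rise was the smallest among the called genes, at 1.69-fold (log2 0.75, SE 0.23, edgeR adjusted p = 0.048).

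COX1 had 25924, 16675, 17271 and 12425 CPM in anti-ANG-2 retinas at P19, against 12397, 12246, 10738 and 9712 CPM at P17. The groups did not overlap, although the lowest P19 value only just cleared the highest P17 value. The difference missed the threshold, at 1.60-fold (log2 0.68, SE 0.23, edgeR adjusted p = 0.076). ND2 passed the test (log2 0.88, edgeR adjusted p = 0.038) but its groups overlapped, with 627 CPM in the lowest retina at P19 and 639 CPM in the highest at P17. The other called genes were ND4, ND5 and COX2, with log2 fold changes of 0.86, 0.79 and 0.83.

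These 9 calls rest on few retinas and on the choice of scale. Without anti-ANG-2 replicate 1 at P19, the retina with the highest mitochondrial share of all 40 and a TMM factor of 0.743, 0 of 10 genes were called, as against 0.277% of all genes, and the median log2 fold change was 0.67. The count was also 0 without P17 replicate 3 or 4, where 1.85% and 1.51% of all genes were called. It was 3 without P17 replicate 1 and 5 without P19 replicate 3, where 2.47% and 3.5% of all genes were called. On log2(TPM + 1) with limma it was 0 of 10, although 15.1% of all genes were called on that scale. The median was 0.29 there, while the median of all genes moved to -0.30. The Y-linked marker genes Ddx3y, Eif2s3y, Kdm5d and Uty, which mark male RNA, summed to 0% of counts in all 4 anti-ANG-2 retinas at P17 and to 0.0122%, 0.0128%, 0.00114% and 2.9e-05% in those at P19. With the Y-linked level as a covariate 0 of 10 genes were called (edgeR adjusted p from 0.2 to 0.36), as against 0.285% of all genes, with a median log2 fold change of 0.69. The same genes summed to 0% in all 4 bispecific retinas at P19 and to 0.0181% to 0.0218% in all 4 IgG retinas at P19, so sex and antibody cannot be told apart in that comparison.

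**Figure D3:**
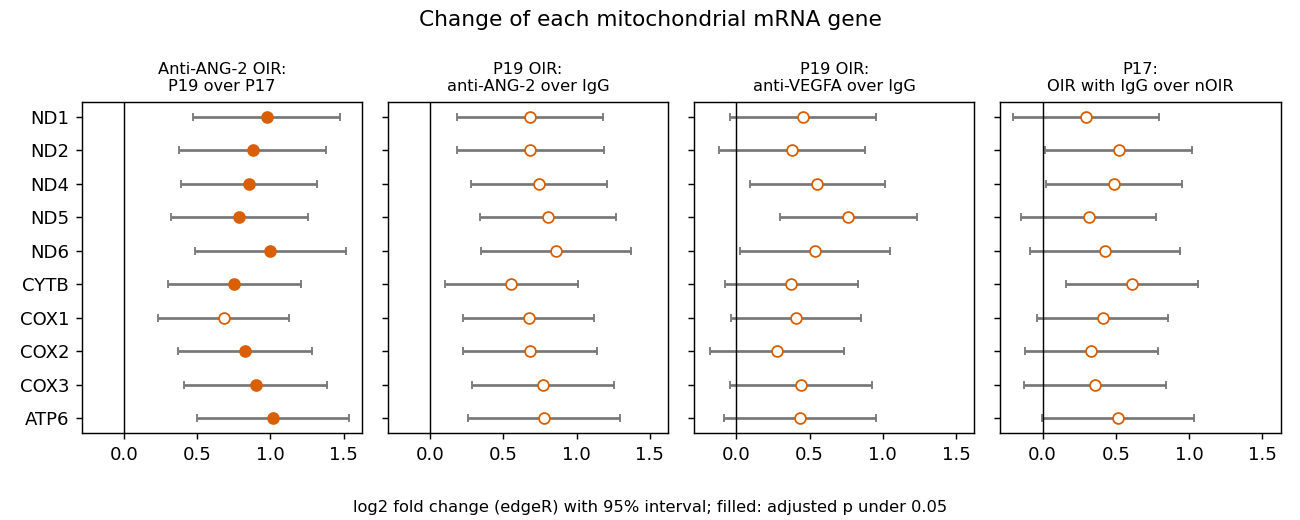
Points are log2 fold changes from edgeR with 95% intervals for the 10 genes, filled where the adjusted p was under 0.05. All 10 lie above 0 in each of the 4 comparisons, and the filled points are the 9 genes called between P19 and P17 in anti-ANG-2 retinas.

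The other groups gave smaller or more variable differences between the ages, and in none was any of the 10 genes called. Anti-VEGFA retinas came nearest, with log2 fold changes from 0.48 to 0.92 and edgeR adjusted p from 0.27 to 0.53, in a comparison where 0% of all genes were called. All 10 genes were under 0.05 before adjustment, as were 9.11% of all genes. The Y-linked genes summed to 0.0199% to 0.0289% of counts in anti-VEGFA retinas at P17, but to 0% in replicates 1 and 2 at P19. In nOIR retinas the log2 fold changes ran from 0.23 to 0.62 (edgeR adjusted p from 0.51 to 1), with 4 genes under 0.05 before adjustment, as were 6.01% of all genes. In the nOIR comparison 5 genes had every P19 retina above every P17 retina, as did 3.23% of all genes, and 0.0979% of all genes were called. Without nOIR replicate 3 at P17, the retina with the lowest share in that group, the log2 ratio of mean shares was 0.22 against 0.35 with it. Bispecific retinas ranged from 0.10 to 0.42 and IgG retinas from 0.02 to 0.24 in log2 fold change, with 0 of the 10 genes under 0.05 before adjustment in either. Over all genes 0.0298% were called and 5.78% under 0.05 before adjustment in bispecific retinas, and 0.00851% and 4.69% in IgG retinas.

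At P19 itself, both single antibodies were set against IgG, and these comparisons share the same 4 IgG retinas. With anti-ANG-2 the 10 genes had log2 fold changes from 0.56 to 0.86, and none was called (edgeR adjusted p from 0.15 to 0.28), as against 0.0979% of all genes. All 10 were under 0.05 before adjustment, as were 12.5% of all genes. ND5 had 9086, 5009, 5661 and 4648 CPM in anti-ANG-2 retinas and 4153, 3342, 3791 and 2685 CPM in IgG retinas. It was the only 1 of the 10 genes without overlap (log2 0.80, SE 0.24, edgeR adjusted p = 0.15), where 1.97% of all genes were higher without overlap. DESeq2, a second count model, called 5 of the 10 where it called 2.22% of all genes, and without anti-ANG-2 replicate 4 edgeR called 3 where it called 1.81% of all genes. Other alternatives were weaker. Over 19 alternative fits in edgeR, DESeq2 or limma, adjusted p of the 10 genes ran from 0.036 to 0.7. The log2 fold change of CYTB went down to 0.16. Sums of the Y-linked genes did not overlap either, at 2.9e-05% to 0.0128% of counts in anti-ANG-2 retinas and 0.0181% to 0.0218% in IgG retinas. Sex and antibody therefore cannot be told apart here. Markers of retinal cells also stood apart in this comparison. Rod markers summed to 7.61% to 9.37% of counts in anti-ANG-2 retinas and 5.74% to 7.51% in IgG retinas, with 12 of 12 log2 fold changes positive (median 0.51) and 0 called. Bipolar cell markers summed to 0.0378% to 0.0799% in anti-ANG-2 retinas and 0.0845% to 0.115% in IgG retinas, with 1 of 8 called lower (median -0.71). Mueller glia markers summed to 0.335% to 0.511% in anti-ANG-2 retinas and 0.533% to 0.62% in IgG retinas, with 0 of 8 called (median -0.47). Red blood cell markers summed to 0.0171% to 0.0257% in anti-ANG-2 retinas and 0.0271% to 0.0626% in IgG retinas, with 0 of 5 called. The part of these cells in the mitochondrial values was not tested.

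With anti-VEGFA the log2 fold changes against IgG at P19 ran from 0.28 to 0.77, with edgeR adjusted p from 0.31 to 0.69, and 0% of all genes were called. Before adjustment 3 genes, ND4, ND5 and ND6, were under 0.05, as were 11.1% of all genes. ND5 had the largest difference, with 4422, 4872, 7182 and 7271 CPM in anti-VEGFA retinas and 4153, 3342, 3791 and 2685 CPM in IgG retinas. Its groups did not overlap (log2 0.77, SE 0.24, edgeR adjusted p = 0.31), as for 2.74% of all genes. COX2 showed the smallest difference, with 2710, 2460, 4151 and 4032 CPM in anti-VEGFA retinas and 3280, 2649, 3149 and 1943 CPM in IgG retinas. Anti-VEGFA replicates 1 and 2 lay within the IgG range for COX2, and replicates 3 and 4 above it (log2 0.28, SE 0.23, edgeR adjusted p = 0.69). The Y-linked genes summed to 0% of counts in anti-VEGFA replicates 1 and 2, and to 0.0206% and 0.0241% in replicates 3 and 4. In IgG retinas they summed to 0.0181% to 0.0218%. Sex and other differences between these anti-VEGFA retinas cannot be told apart. In this comparison Mueller glia markers summed to 0.331% to 0.457% of counts in anti-VEGFA retinas and 0.533% to 0.62% in IgG retinas, and microglial markers to 0.0234% to 0.0265% in anti-VEGFA retinas and 0.031% to 0.036% in IgG retinas. Neither sum overlapped, none of these markers was called, and their part in the mitochondrial values was not tested.

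The bispecific antibody binds both targets. Of the retinas given it, replicate 4 at P19, with a mitochondrial share of 5.88%, stood above every IgG retina and the other 3 lay within the IgG range. Against IgG at P19 the 10 genes had log2 fold changes from -0.25 to 0.21 (edgeR adjusted p from 0.86 to 1), where 0.0468% of all genes were called. Before adjustment 0 of the 10 and 8.24% of all genes were under 0.05. Set directly against anti-ANG-2 at P19, they had log2 fold changes from -1.04 to -0.59, with all 10 under 0.05 before adjustment, as were 11.6% of all genes. None was called (edgeR adjusted p from 0.11 to 0.28), as was true of all genes (0%). ND6 had 287, 301, 200 and 357 CPM in bispecific retinas and 917, 494, 585 and 361 CPM in anti-ANG-2 retinas, without overlap but with the nearest values almost touching. Only ND6 and ND2 were lower without overlap, where 1.25% of all genes were. DESeq2 called 5 of the 10 where it called 1.71% of all genes, and without anti-ANG-2 replicate 4 edgeR called 7 where it called 2.93% of all genes. Other alternatives were weaker. Over 19 alternative fits in edgeR, DESeq2 or limma, adjusted p of the 10 genes ran from 0.014 to 0.91. The log2 fold change of ND5 was as small as -0.15.

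Set against anti-VEGFA at P19, the bispecific retinas had log2 fold changes from -0.72 to -0.37 (edgeR adjusted p from 0.33 to 0.7), where 0.0553% of all genes were called, and 7 of the 10 were under 0.05 before adjustment, as were 9.44% of all genes. The single antibodies set against each other, anti-VEGFA over anti-ANG-2, had log2 fold changes from -0.41 to -0.04 (edgeR adjusted p from 0.39 to 0.97), where 0.238% of all genes were called. Before adjustment 0 of the 10 and 16.8% of all genes were under 0.05. On log2(TPM + 1) the median of this last comparison was 0.12 instead of -0.28, so its direction depended on the scale. At P17, all antibody groups were close to IgG and to each other. There the log2 fold changes stayed between -0.32 and 0.17 over all 6 comparisons, with 0% of all genes called. Before adjustment 0 of the 10 genes were under 0.05 in edgeR's test. Among all genes that share was 3.92% for the bispecific antibody, 7.64% for anti-ANG-2 and 4.8% for anti-VEGFA, each against IgG. It was 2.82% for the bispecific against anti-ANG-2, 2.88% for the bispecific against anti-VEGFA and 2.8% for anti-VEGFA against anti-ANG-2.

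Whether an antibody acted differently at the ages was tested directly, as the difference of its 2 effects against IgG. For anti-ANG-2 this difference was 0.61 to 0.84 in log2, with 8 of 10 genes under 0.05 before adjustment, as were 11% of all genes. It was not called for any of the 10 (edgeR adjusted p from 0.4 to 0.5) nor for any gene at all (0%). The difference was 0.34 to 0.76 for anti-VEGFA and -0.09 to 0.26 for the bispecific antibody, with 0 of 10 called and edgeR adjusted p = 1 throughout. Before adjustment 1 gene, ND5, was under 0.05 for anti-VEGFA and 0 for the bispecific antibody, against 4.78% and 4.49% of all genes.

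OIR itself, in IgG retinas against nOIR retinas, gave no called change in the mitochondrial mRNAs. At P17 all 10 genes had positive log2 fold changes, from 0.30 for ND1 to 0.61 for CYTB, and none was called (edgeR adjusted p from 0.16 to 0.64), while 2.36% of all genes were. Before adjustment 3 genes, CYTB, ND2 and ND4, were under 0.05, as were 15.7% of all genes. CYTB had 5199, 6039, 8371 and 6528 CPM in IgG retinas and 5474, 5170, 2649 and 3825 CPM in nOIR retinas. The groups overlapped, and nOIR replicate 3, with a TMM factor of 1.28, was the lowest (log2 0.61, SE 0.23, edgeR adjusted p = 0.16). Another fit left out the 6 libraries that stood apart in the series, among them nOIR replicate 3 and IgG replicate 4 of this comparison. Its median log2 fold change was 0.23 against 0.42 with all libraries. At P19 the log2 fold changes lay between -0.01 and 0.26 (edgeR adjusted p from 0.74 to 1), where 0.919% of all genes were called. Before adjustment 0 of the 10 and 12.6% of all genes were under 0.05. The difference between the ages in the OIR effect was not called for any of the 10 genes (edgeR adjusted p from 0.98 to 1), where 0.00426% of all genes were, and 0 of the 10 and 5.68% of all genes were under 0.05 before adjustment.

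Nuclear genes for subunits of the same complexes were set beside the mitochondrial ones. Between P19 and P17 in anti-ANG-2 retinas they moved in the same direction, with 12 of 18 complex I genes called higher (median log2 0.69), 7 of 9 of complex III (0.81), 9 of 10 of complex IV (0.90) and 9 of 13 of ATP synthase (0.70), and none called lower. Of all genes, 4.83% were called in either direction and 3.32% called higher. Atp5e, the epsilon subunit of ATP synthase, had 195 ± 64.4 CPM at P19 against 88.4 ± 11 CPM at P17 (SD, n = 4 each, 2.21-fold, edgeR adjusted p = 0.0032). Ndufa5 of complex I rose 1.79-fold (edgeR adjusted p = 0.015) and Uqcr11 of complex III 1.84-fold (edgeR adjusted p = 0.015). Cox6b1 of complex IV was at 1.60-fold and missed the threshold (edgeR adjusted p = 0.057). Genes for import, channels and matrix proteins, listed as a measure of mitochondrial mass, had 3 of 13 called higher and a median of 0.26. One of these was Tomm20, an import receptor (1.43-fold, edgeR adjusted p = 0.035).

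These nuclear calls leaned on the same retina. Without anti-ANG-2 replicate 1 at P19, 0 of 18 complex I genes, 0 of 9 of complex III, 0 of 10 of complex IV and 2 of 13 of ATP synthase were called, with medians of 0.56, 0.64, 0.74 and 0.60, and 0 of 13 mass genes. Of all genes, 0.277% were called in that fit. Without all libraries that stood apart, 3 of 18, 1 of 9, 6 of 10 and 4 of 13 were called, as were 1.22% of all genes. With the Y-linked covariate only 1 ATP synthase gene of the 4 lists was called, where 0.285% of all genes were. On log2(TPM + 1) 4, 1, 4 and 2 were called higher, and 1 each of complex I and complex III lower. On that scale 15.1% of all genes were called.

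In anti-VEGFA retinas the nuclear subunits did not follow to the same extent. Between P19 and P17 there, the medians of the 4 nuclear lists were 0.20 to 0.30 against 0.75 for the 10 mitochondrial genes. No nuclear member was called, as was true of all genes (0%). Against IgG at P19, the anti-VEGFA medians of the nuclear lists lay between -0.14 and -0.02 against 0.44 for the mitochondrial genes. With anti-ANG-2 against IgG at P19 they were 0.44 to 0.66 against 0.71, with 0 nuclear members called, where only 0.0979% of all genes were. In nOIR retinas the nuclear medians between the ages were -0.01 to 0.09 against 0.49 for the mitochondrial genes. No test compared the nuclear with the mitochondrial lists.

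In OIR at P19 the values were the other way round. The nuclear medians in IgG over nOIR retinas were 0.43 to 0.64, against 0.12 for the 10 mitochondrial genes and -0.05 for all genes. The called nuclear members were Ndufa5 at 1.77-fold (edgeR adjusted p = 0.043), Uqcr11 at 1.83-fold (edgeR adjusted p = 0.041) and Cox6b1 at 1.76-fold (edgeR adjusted p = 0.049). Among all genes 0.919% were called. Each of these 3 was called in 8 of 19 alternative fits in edgeR, DESeq2 or limma, with adjusted p up to 0.27. Cox6b1 had 349 ± 66.2 CPM in IgG retinas and 199 ± 18.3 CPM in nOIR retinas (SD, n = 4 each). With the Y-linked covariate none of these 3 genes was called (edgeR adjusted p from 0.095 to 0.12), where 0.515% of all genes were. Cell markers also stood apart, with 6 of 9 microglial and 2 of 8 endothelial markers called higher. Mueller glia markers summed to 0.533% to 0.62% of counts in IgG retinas and 0.359% to 0.41% in nOIR retinas. Ganglion cell markers summed to 0.156% to 0.237% in IgG retinas and 0.246% to 0.332% in nOIR retinas. The part of these cells was not tested. Without the 6 libraries that stood apart in the series, none of which belongs to these groups, 5 of 18 genes of complex I, 4 of 9 of complex III, 4 of 10 of complex IV and 6 of 13 of ATP synthase were called, as were 2.5% of all genes in that fit.

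**Figure D4:**
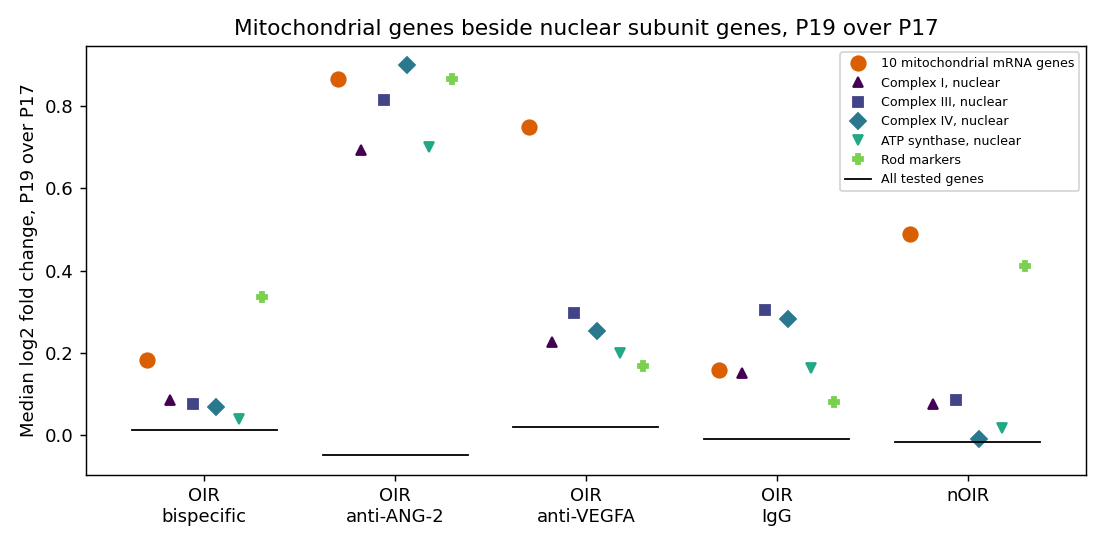
For each group, symbols give the median log2 fold change at P19 over P17 of the 10 mitochondrial genes, of 4 lists of nuclear subunit genes and of rod markers, and the line that of all tested genes. In anti-ANG-2 retinas the symbols lie between 0.69 and 0.90, while in anti-VEGFA and nOIR retinas the mitochondrial genes, at 0.75 and 0.49, lie above the nuclear subunits.

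Cell type markers moved alongside. All 12 rod markers had positive log2 fold changes between P19 and P17 in anti-ANG-2 retinas, 10 of them called (median 0.87), and 2 of 12 without anti-ANG-2 replicate 1 at P19 (median 0.74). Of all genes, 4.83% were called, and 0.277% without that replicate. Rod markers summed to 7.61% to 9.37% of counts at P19 and 5.10% to 6.29% at P17, so the ages did not overlap. Of 8 bipolar cell markers, 4 were called lower (median -0.67), or 0 without that replicate, and their sum was 0.0378% to 0.0799% of counts at P19 and 0.0989% to 0.134% at P17. Of 9 cone markers 4 were called higher (median 0.37), and their sum was 0.249% to 0.367% at P19 and 0.213% to 0.24% at P17. None of 8 amacrine cell markers was called (median -0.28), and their sum was 0.0309% to 0.0551% at P19 and 0.0578% to 0.0821% at P17. The 5 red blood cell markers, 0 of them called, summed to 0.0171% to 0.0257% at P19 and 0.0286% to 0.056% at P17. Rods lie in the mitochondria-rich outer retina, and bipolar and ganglion cells in the inner retina. Ganglion cell markers did not follow the bipolar ones. Of 9, 2 were called higher and 0 lower (median 0.16). Their sum overlapped, at 0.147% to 0.22% at P19 and 0.17% to 0.203% at P17. The part of cell makeup in the mitochondrial values was not tested. In nOIR retinas 3 of 12 rod markers were called higher at P19 (median 0.41), and in anti-VEGFA retinas 0 of 12 (median 0.17). Of all genes, 0.0979% and 0% were called in these comparisons. Lens markers, which mark tissue carried over at dissection, summed to 0.00226% to 0.0123% of counts in anti-ANG-2 retinas at P19 and 0.00128% to 0.623% at P17. With pigment epithelium and lens levels as covariates 9 of the 10 mitochondrial genes were called, as were 6.99% of all genes.

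Regulators of mitochondrial gene expression gave little sign of a shared change. The mitochondrial RNA polymerase Polrmt, the DNA packaging and transcription factor Tfam and the coactivator Ppargc1a were not called between P19 and P17 in anti-ANG-2 retinas, at 0.69-fold for Polrmt (edgeR adjusted p = 0.39), 0.98-fold for Tfam (0.97) and 0.99-fold for Ppargc1a (0.99). Top1mt, the mitochondrial topoisomerase, rose 1.65-fold (edgeR adjusted p = 0.034), the only called member of 18 genes of DNA transcription and replication. Coa3, an assembly factor that acts on COX1 translation, rose 1.78-fold (edgeR adjusted p = 0.0075), 1 of 2 called among 13 translation regulators. None of the 8 biogenesis regulators was called, against 4.83% of all genes. Without anti-ANG-2 replicate 1 at P19 neither Top1mt nor Coa3 was called (edgeR adjusted p = 0.089 for both), where 0.277% of all genes were.

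LRPPRC and SLIRP form the complex that stabilises mitochondrial mRNAs, and their genes went in opposite directions. Lrpprc had 41.3 ± 11 CPM in anti-ANG-2 retinas at P19 against 68.1 ± 7.69 CPM at P17 (SD, n = 4 each), and fell to 0.61-fold (edgeR adjusted p = 0.018). Slirp, named after its value was seen, had 85 ± 24.9 CPM at P19 and 43.2 ± 5.8 CPM at P17, and rose 1.97-fold (edgeR adjusted p = 0.0081). They were the only called members of the 21 genes of mitochondrial RNA processing and stability, against 4.83% of all genes. Without anti-ANG-2 replicate 1 at P19 neither was called, where 0.277% of all genes were. The log2 fold changes were then -0.65 for Lrpprc (edgeR adjusted p = 0.12) and 0.81 for Slirp (edgeR adjusted p = 0.09). Against IgG at P19, Lrpprc stood at 0.57-fold with anti-ANG-2 (edgeR adjusted p = 0.073) and 0.69-fold with anti-VEGFA (edgeR adjusted p = 0.32).

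In OIR at P17 some of these nuclear genes changed while the 10 mitochondrial genes did not pass the test. Trmt10c, a subunit of the enzyme that cuts the 5' ends of mitochondrial tRNAs out of the precursor, had 35.2 ± 4.99 CPM in IgG retinas and 20.1 ± 2.86 CPM in nOIR retinas (SD, n = 4 each, 1.75-fold, edgeR adjusted p = 0.0045). It was the only called member of its list of 21. Tomm20 rose 1.46-fold (edgeR adjusted p = 0.035), and Ppargc1b, a coactivator of biogenesis, stood at 0.76-fold and was not called (edgeR adjusted p = 0.14). Of 11 tested genes of mitophagy and the mitochondrial response to low oxygen, 6 rose. Ndufa4l2, a low-oxygen relative of a complex IV subunit, had 80.3 ± 12 CPM in IgG retinas and 7.32 ± 1.41 CPM in nOIR retinas (SD, n = 4 each, 10.9-fold, edgeR adjusted p = 1.1e-11). The mitophagy receptor gene Bnip3 rose 2.50-fold (edgeR adjusted p = 9e-06) and Higd1a, a hypoxia-induced inner membrane protein gene, 1.83-fold (edgeR adjusted p = 0.0014). In this comparison microglial markers were also higher, with 7 of 9 called, against 2.36% of all genes. Also called higher were 3 of 11 pigment epithelium, 4 of 5 red blood cell and 3 of 9 cone markers. Cone markers summed to 0.224% to 0.272% of counts in IgG retinas and 0.149% to 0.21% in nOIR retinas. Bipolar cell markers summed to 0.091% to 0.131% in IgG retinas and 0.142% to 0.168% in nOIR retinas, with 0 of 8 called. Amacrine cell markers, 0 of 8 called, summed to 0.0622% to 0.0766% and 0.0811% to 0.0978%. The part of cell makeup was not tested. With pigment epithelium and lens levels as covariates the median log2 fold change of the 10 mitochondrial genes was 0.27, against 0.42 without. Under those covariates Trmt10c, Tomm20 and Higd1a were not called (edgeR adjusted p = 0.12, 0.6 and 0.13), while Bnip3 and Ndufa4l2 were, as were 0.37% of all genes. Without the 6 libraries that stood apart in the series, 3 of the 11 mitophagy and low-oxygen genes were called, as were 1.41% of all genes. That fit left out nOIR replicate 3 and IgG replicate 4 of this comparison.

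Across the 40 libraries, the nuclear genes whose log2 CPM ran most like the mean of the 10 were sought among 9926 genes of at least 10 CPM. The highest Pearson correlations were those of Cycs (0.94), which encodes cytochrome c, Rpl22l1 (0.93), a ribosomal protein paralog, Gngt1 (0.93), the rod transducin gamma subunit, Ndufb5 (0.93), a complex I subunit, and Fis1 (0.92), a mitochondrial fission protein. The most negative were those of Tef (-0.81), Hap1 (-0.80), Cpt1c (-0.79), Slc25a22 (-0.78) and Zmiz1 (-0.77). The points share depth and RNA quality, and no p is given. Genes most like the mitochondrial ones were short as a set, although the most alike genes named above ran from 948 bases (Fis1) to 3127 bases (Ndufb5). The longest annotated transcript had a median of 1488 bases among the 992 genes with the highest correlations, 4664 bases among the 992 with the lowest and 3546 bases over all genes compared. Transcript length thus ran with the mitochondrial level from library to library, and its part in the differences between groups was not tested.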

How the data were processed

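The authors deposited RSEM expected counts and TPM values for 42037 gene symbols in 40 libraries. The tools named by the submitters' processing notes are RSEM 1.3.3 and STAR 2.7.10a, and the build is GRCm38.p4. Which annotation defined the genes is not stated in what was used. Per the labels' protocols, each sample is 1 whole retina, with cDNA from a SMART-Seq mRNA kit and Nextera XT libraries. Strand and molecular identifiers are not mentioned. The labels do not say which retinas share a mouse or litter, so p-values measure the spread between retinas. Total counts ran from 9160000 to 25800000 per library.

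Fractions occurred in 15.7% of nonzero expected counts, so values were rounded first. Scaling used TMM factors, and the model was fitted in edgeR 4.0.16 (R 4.3.3) with the robust quasi-likelihood model, using all 40 libraries. The filter by group left 23495 genes. A gene was called at a Benjamini-Hochberg adjusted p under 0.05 over all tested genes of its comparison. There were 19 comparisons and 4 differences between comparisons. Shares of counts got no test. DESeq2 1.42.0 and limma 3.58.1 on log2(TPM + 1) were alternatives, and the fit was tested on simulated data. Coordinates and sequences come from GENCODE M21 of GRCm38.

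All 10 genes are named. From each nuclear mitochondrial list up to 3 genes called in OIR against nOIR or antibody against IgG were named, or the gene with the smallest p where none was called. Polrmt, Tfam, Lrpprc and Ppargc1a were always named, as were the 5 genes most and least like the 10. Of the listed symbols, Atp5f1 and Park2 are not in the tables. The genes, lists and tests were chosen with earlier results of these data known.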

Additional observations from a re-analysis of the deposited data

Results flagged for a closer look

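The remaining mitochondrial genes with counts, which the comparisons above do not use, also rose between P19 and P17 in anti-ANG-2 retinas in edgeR's test. The log2 fold changes were 1.28 for ND3 (edgeR adjusted p = 0.0049) and 1.03 for ND4L (edgeR adjusted p = 0.011), both complex I subunits, and 1.12 for ATP8 of ATP synthase (edgeR adjusted p = 0.015). The ribosomal RNAs mt-Rnr1 and mt-Rnr2 were at 1.32 (edgeR adjusted p = 0.01) and 1.44 (edgeR adjusted p = 0.0063). All 5 were above the largest of the 10 mRNA genes, ATP6 at 1.02. mt-Rnr2 had 23306, 11325, 12863 and 9503 CPM in anti-ANG-2 retinas at P19, against 6209, 6104, 4878 and 3884 CPM at P17, without overlap. The 22 mitochondrial tRNA genes were listed at 0 in every library.

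In 1 of 110 groups of 4 retinas examined, a single value stood further from the other 3 than Dixon's 95% limit, where chance gives about 1 in 20. This was ND4 in nOIR retinas at P19, where replicate 4 was lowest at 2328 CPM and its gap to the next value was 0.876 of the whole range.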

How the results depend on the processing

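The 9 calls between P19 and P17 in anti-ANG-2 retinas became 0 with limma on log2(TPM + 1), 0 on log2(TPM + 0.1), 0 with the Y-linked covariate and 0 without the 6 libraries that stood apart, a choice made after seeing the data. Those libraries had TMM factors outside 0.8 to 1.2 or over 0.4% of counts from lens genes. Leaving out each replicate gave 0 to 10 calls there, where 4.83% of all genes were called with every library kept. It gave 0 to 3 for anti-ANG-2 over IgG at P19, with 3 without anti-ANG-2 replicate 4, where 1.81% of all genes were called. For the bispecific over anti-ANG-2 at P19 it gave 0 to 7, with 7 without anti-ANG-2 replicate 4 (2.93% of all genes). Anti-VEGFA at P19 over P17 had 0 to 1, with 1 without P19 replicate 1. With every library kept, 0% of all genes were called in that comparison. DESeq2 called 5 for anti-ANG-2 over IgG and 5 for the bispecific over anti-ANG-2 at P19, with 521 and 401 genes called in all. The log2 ratio of mean shares in anti-ANG-2 retinas at P19 over P17 was 0.52, and 0.28 as shares of TPM. On the TPM scale the log2 change of ND5 in OIR over nOIR at P17 was -0.0066 with either pseudocount. That scale moved the median of all genes in OIR over nOIR at P17 by over 0.1, to -0.22, where the median of the 10 genes was 0.10. At P19 the median of all genes was -0.15 on that scale, and that of the 10 genes was -0.14 instead of 0.12. The cause was not tested. All other counts and share ratios kept within 1.5 times or 1 SD.

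Same-numbered retinas did not deviate together in any of 19 comparisons (every pair's correlation over 0.1 in 0). Although 28 of 40 libraries correlated best with their own number, that count is raised by construction and decides nothing. The other numbers include retinas of the same group, whose deviations from their shared mean oppose each other. With the replicate number as a block, 9 of the 10 genes were called at P19 over P17 in anti-ANG-2 retinas, and 0 in the other comparisons. The fit without the block gave the same counts, with 4.83% of all genes called in the anti-ANG-2 comparison. With 4 retinas a group, differences smaller than the spread between retinas were not detectable.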
